A study of Mus musculus with 9 samples.

Results

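Glycolysis and the transcriptional response to low oxygen were followed through 38 listed genes in mammary tumours and normal mammary glands. The genes are glucose and lactate transporters, glycolytic enzymes and their regulators, subunits and oxygen sensors of the hypoxia-inducible factors (HIFs), carbonic anhydrases and other hypoxia-induced genes. A gene was measured if at least 1 probe set carried its symbol and no other, and the brightest such probe set over the 9 arrays was used. This gave 33 of the 38 genes, out of 22180 genes measured in all, and all 33 passed a filter on low values that left 17478 genes. Gpi1, Eno1, Aldoa, Bnip3l and Ankrd37 had no probe set of their own in the annotation used and were not analysed here.

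The study set metastatic MMTV-Wnt1 tumours against non-metastatic ones and both against normal gland, with 1 array for each of 9 female FVB mice. Metastatic tumours 1 to 3 and non-metastatic tumours 1 to 3 came from mice labelled Wnt1+/-, which carry the secreted growth signal Wnt1 under the mouse mammary tumour virus promoter, a promoter active mainly in mammary epithelium. Normal glands 1 to 3 came from control littermates labelled wild type for Wnt1. All mice, controls included, drank doxycycline (200 ug/ml) in sucrose (6%) from the age of 6 weeks, and tumours were taken once they had reached 20 mm. At collection the mice were 281 to 300 days old in the metastatic group, 222 to 354 days in the non-metastatic group and 533 to 556 days in the normal group. Age and tumour status therefore cannot be told apart against normal gland. Age at onset was 251, 194 and 242 days for metastatic tumours 1 to 3, and 306, 192 and 247 days for non-metastatic tumours 1 to 3.

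Glycolysis splits glucose to pyruvate in the cytosol, and lactate dehydrogenase turns pyruvate to lactate when oxygen is short or flux is high. Under normal oxygen, prolyl hydroxylases encoded by Egln genes mark HIF alpha subunits for destruction. In hypoxia the alpha subunits persist, pair with Arnt and bind short DNA elements in front of genes for glucose uptake, glycolysis, lactate export and pH control. The arrays measure RNA, and HIF alpha subunits are regulated mainly as proteins.

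The values are deposited log2 values, so a difference of 1 is a doubling. Wnt1 itself (probe set 17314666) lay at 11.20 to 12.04 in metastatic tumours, 11.80 to 12.40 in non-metastatic tumours and 5.45 to 5.71 in normal glands, as labelled. Normal gland 2 stood apart. Over 8 genes of skeletal muscle it averaged 10.08 on the log2 scale, while normal glands 1 and 3 averaged 5.90 and 6.25. Over 6 genes of differentiated epidermis it averaged 10.89, while the other normal glands averaged 5.93 and 5.96. Luminal epithelial markers, 6 in all, averaged 9.86 to 10.59 in the tumours, and 9.71, 8.26 and 9.84 in normal glands 1 to 3. Counts that use normal gland are therefore also given without it. In pieces of tissue such as these, fewer cells of a type and less RNA per cell cannot be told apart.

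The core letters of a hypoxia response element are ACGTG or GCGTG. Both were searched on both strands of the 250 bases before each annotated gene start (RefSeq, build GRCm38.p6, a C57BL/6J reference and not FVB), where matches may overlap each other. Windows were at hand for 30 of the 33 genes. Of their 40 windows, 32 (80%) held a match, against 38.6% of 32851 windows of all genes. Member windows also had a higher median GC content, 62.2% against 52.4%, and a median of 14 CG dinucleotides against 6, and the part of base composition in the share was not tested. The windows below belong to Car12 and Egln3, which rose most in tumours, and to Slc16a3 and Adm, which stood out in a single tumour. The last belongs to Ldha, which had the most ACGTG matches and differed little between groups on its only probe set, a dim one. Each window is written 5′ to 3′ in the direction of its gene, with matches in capitals. Matches on the opposite strand read CACGT or CACGC.
Car12 (chr9:66713436-66713685, plus strand): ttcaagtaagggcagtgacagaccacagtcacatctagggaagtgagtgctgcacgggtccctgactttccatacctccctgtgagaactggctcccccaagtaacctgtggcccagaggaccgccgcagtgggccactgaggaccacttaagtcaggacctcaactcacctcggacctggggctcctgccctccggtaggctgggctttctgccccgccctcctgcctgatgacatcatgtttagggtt
Egln3 (chr12:54203875-54204124, minus strand): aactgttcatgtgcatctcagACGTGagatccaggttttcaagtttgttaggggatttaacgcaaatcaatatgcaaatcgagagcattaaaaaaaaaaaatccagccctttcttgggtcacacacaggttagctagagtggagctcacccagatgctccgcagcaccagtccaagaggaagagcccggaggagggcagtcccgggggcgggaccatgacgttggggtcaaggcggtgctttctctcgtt
Slc16a3 (chr11:120948817-120949066, plus strand): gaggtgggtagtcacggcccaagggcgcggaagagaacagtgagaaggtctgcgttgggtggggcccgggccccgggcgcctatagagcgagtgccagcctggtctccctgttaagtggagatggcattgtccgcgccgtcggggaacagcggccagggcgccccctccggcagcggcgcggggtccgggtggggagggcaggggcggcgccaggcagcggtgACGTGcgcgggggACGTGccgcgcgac
Adm (chr7:110627407-110627656, plus strand): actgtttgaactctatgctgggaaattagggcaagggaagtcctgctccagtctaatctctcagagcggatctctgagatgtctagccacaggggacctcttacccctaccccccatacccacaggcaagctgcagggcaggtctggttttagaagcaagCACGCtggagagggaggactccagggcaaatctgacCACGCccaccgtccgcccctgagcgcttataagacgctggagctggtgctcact
Ldha (chr7:46845554-46845803, plus strand): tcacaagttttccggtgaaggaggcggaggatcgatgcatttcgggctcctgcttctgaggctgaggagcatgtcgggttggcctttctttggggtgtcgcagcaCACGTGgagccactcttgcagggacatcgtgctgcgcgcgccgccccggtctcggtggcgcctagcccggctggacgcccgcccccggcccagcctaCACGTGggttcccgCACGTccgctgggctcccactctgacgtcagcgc
Car12 had no match in this window, Egln3 had 1 and Slc16a3 had 2. Adm had 2 GCGTG matches, and Ldha had 5 ACGTG matches, which overlap at its palindromic sites. A match is a description of these letters and not of a bound site.

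**Figure D1:**
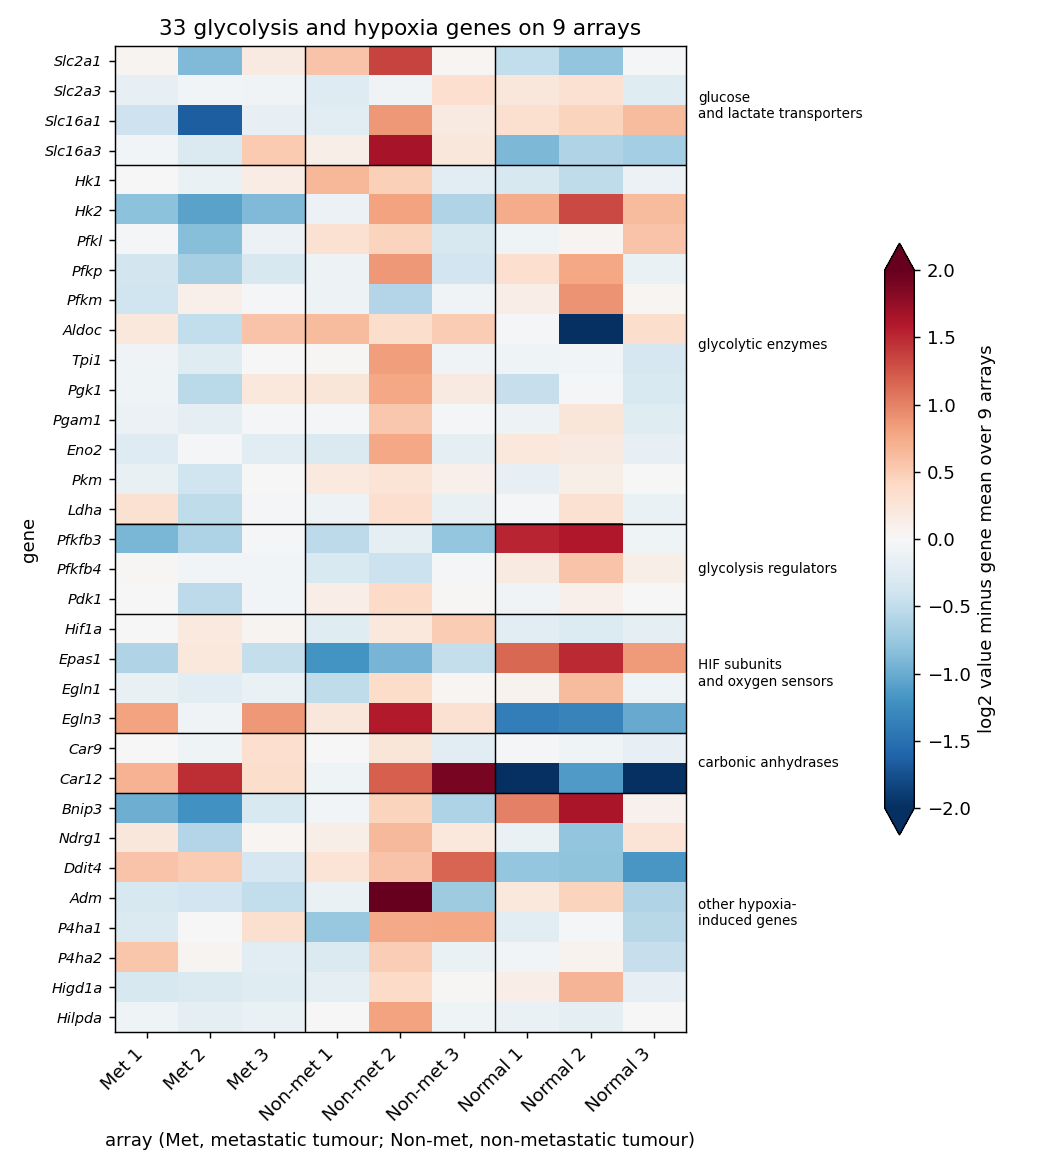
Log2 value of each of the 33 genes (rows, by role) on each of the 9 arrays (columns), minus the gene's mean over all arrays. Colours end at 2 in either direction. The column of non-metastatic tumour 2 is high for most transporters and enzymes, while Car12 and Egln3 are low in all 3 normal glands.

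Against normal gland, the genes did not move as a block. Over all 6 tumours, 3 of the 33 genes rose (Car12, Egln3 and Ddit4) and 5 fell (Hk2, Pfkfb3, Pfkfb4, Epas1 and Bnip3), while 25 did not pass the threshold, an adjusted p under 0.05 in limma. That is 24.2% of the genes, beside 22.8% of all genes tested, and the median log2 change was 0.01, beside 0.04 over all genes. In metastatic tumours 3 rose and 3 fell (18.2%, beside 13.3% of all genes). In non-metastatic tumours 4 rose and 3 fell (21.2%, beside 18.8%). By direction, the share of all genes that rose was 13.6% over all tumours, 7.35% in metastatic and 11.2% in non-metastatic tumours, and the share that fell was 9.13%, 6% and 7.6%. These shares lie near the background. At an unadjusted p under 0.05 the counts were 11 over all tumours, 8 in metastatic and 12 in non-metastatic tumours (37.1%, 30.5% and 34.4% of all genes). Without normal gland 2 these counts were 9, 8 and 8 (28.7%, 23.9% and 27.9% of all genes). In metastatic tumours 5 genes lay above and 8 below the normal glands without overlap (23.2% and 15.3% of all genes), and in non-metastatic tumours 7 and 4 (21.9% and 14.3%). The 3 comparisons share the normal glands and are not independent.

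Single arrays moved these counts. Over all tumours 4 genes passed without normal gland 2 (Car12, Egln3, Ddit4 and Epas1), and the same 4 with Hk2 without normal gland 1 or metastatic tumour 1. In non-metastatic tumours Car12, Ddit4 and Epas1 passed without normal gland 1 or 2, and these with Egln3 without any 1 of the metastatic tumours. In metastatic tumours 0 genes passed without metastatic tumour 1, Egln3, Epas1 and Hk2 without metastatic tumour 2, Car12 and Ddit4 without metastatic tumour 3, Hk2 without normal gland 1 and Car12 without normal gland 2. Without non-metastatic tumour 1, Hif1a and P4ha1 also passed in non-metastatic and in all tumours, and without non-metastatic tumour 3 Hk1 did. The share of all genes past the threshold moved too. Over all tumours it was 11.3% and 10.8% with normal glands 1 and 2 left out in turn, and 16.2% with metastatic tumour 1 left out. In non-metastatic tumours it was 8.54% and 7.59% without normal glands 2 and 1, and 13.7% to 15.7% without a metastatic tumour. In metastatic tumours it was 3.62%, 6.21% and 3.66% without metastatic tumours 1, 2 and 3, and 4.44% and 4.82% without normal glands 1 and 2.

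**Figure D2:**
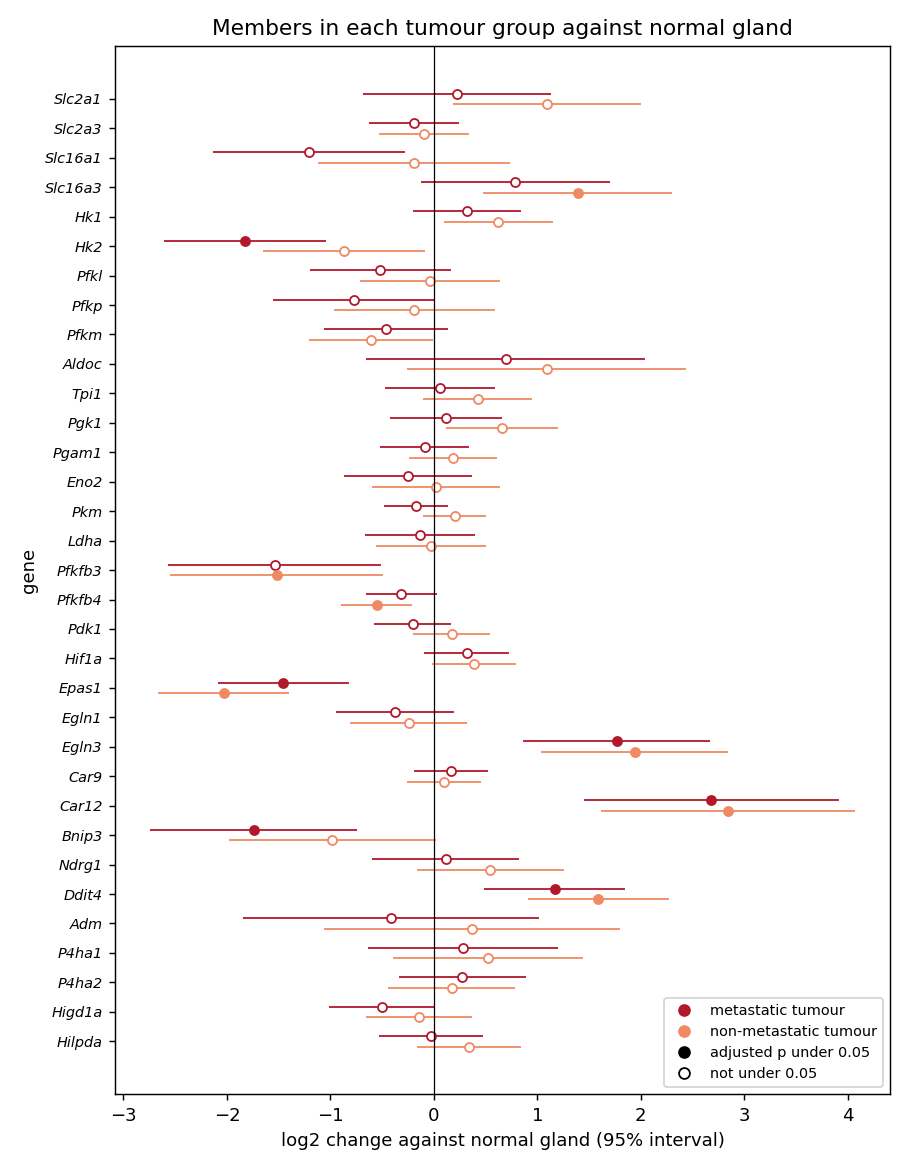
Log2 change against normal gland of each gene, in metastatic and in non-metastatic tumours, with limma's 95% interval. Filled points have an adjusted p under 0.05. Car12, Egln3 and Ddit4 lie right of 0 and Epas1 left of 0 in both tumour groups.

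The carbonic anhydrases set pH at the cell surface by hydrating carbon dioxide. Car12 showed the largest rise of the 33 genes. It had log2 values of 9.02, 9.79 and 8.68 in metastatic tumours, 8.24, 9.51 and 10.22 in non-metastatic tumours, and 6.17, 7.19 and 6.08 in normal glands. Every tumour lay above every normal gland. The change was 2.68 in metastatic tumours (SE 0.54, adjusted p = 0.020, 6.42-fold) and 2.84 in non-metastatic tumours (SE 0.54, adjusted p = 0.013, 7.18-fold). Over all tumours it was 2.76 (SE 0.46), and it passed in each of 20 alternatives of the fit (highest adjusted p = 0.034). The metastatic call ended in 3 of 21 alternatives and the non-metastatic call in 0 of 21.

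Car9, a classic HIF target, has 2 probe sets that differ. The brighter, 17424651, read 6.17, 6.10 and 6.51 in metastatic tumours, 6.19, 6.42 and 5.95 in non-metastatic tumours, and 6.16, 6.09 and 6.02 in normal glands. The groups overlapped, with changes of 0.17 (SE 0.15, adjusted p = 0.51) in metastatic and 0.10 (SE 0.15, adjusted p = 0.705) in non-metastatic tumours. The dimmer, 17413352, read 5.59, 5.33 and 6.17 in metastatic tumours, 5.85, 7.18 and 5.60 in non-metastatic tumours, and 5.19, 5.40 and 5.24 in normal glands. On that probe set the value of non-metastatic tumour 2 stood above all others, and the normal glands and the other tumours overlapped only at metastatic tumour 2. Most values of both probe sets lay near or below the array medians of 5.80 to 5.94, and detection was not tested.

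Among the HIF subunits and oxygen sensors, a rise of Egln3 stood beside a fall of Epas1. Egln3 encodes a prolyl hydroxylase that marks HIF alpha subunits and is itself induced by HIF. Its values were 10.46, 9.59 and 10.54 in metastatic tumours, 9.89, 11.25 and 9.97 in non-metastatic tumours, and 8.28, 8.33 and 8.66 in normal glands, without overlap. It rose by 1.77 in metastatic tumours (SE 0.39, adjusted p = 0.027, 3.41-fold) and by 1.94 in non-metastatic tumours (SE 0.39, adjusted p = 0.016, 3.85-fold). The metastatic call ended in 5 of 21 alternatives and the non-metastatic call in 2 of 21. Egln1, the main prolyl hydroxylase under normal oxygen, had 9.42, 9.35 and 9.44 in metastatic tumours, 9.07, 9.93 and 9.61 in non-metastatic tumours, and 9.64, 10.21 and 9.49 in normal glands. The groups overlapped in part, and its change over all tumours of -0.31 (SE 0.21, adjusted p = 0.34) did not pass.

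Epas1 encodes the HIF alpha subunit best known from endothelium and adipose tissue. It stood at 9.00, 9.82 and 9.13 in metastatic tumours, 8.41, 8.68 and 9.13 in non-metastatic tumours, and 10.75, 11.10 and 10.46 in normal glands, so no tumour reached the lowest normal gland. The change was -1.45 in metastatic tumours (SE 0.28, adjusted p = 0.018) and -2.03 in non-metastatic tumours (SE 0.28, adjusted p = 0.0055). The metastatic call ended in 4 of 21 alternatives and the non-metastatic call in 0 of 21. Over all tumours the change was -1.74 (SE 0.24, adjusted p = 0.0038), past the threshold in each of 20 alternatives. Cell type markers moved with it. Of 6 endothelial markers 2 fell over all tumours, and their mean lay at 8.35 to 9.19 in metastatic tumours, 7.72 to 8.94 in non-metastatic tumours and 9.30 to 9.75 in normal glands. All 7 white adipocyte markers fell, with means of 6.09 to 6.90 in metastatic tumours, 5.80 to 7.75 in non-metastatic tumours and 11.02 to 12.05 in normal glands. The part of these cells in the result was not tested.

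Hif1a, the alpha subunit found in most cells, did not pass against normal gland in the main fit. It had 9.80, 10.004 and 9.86 in metastatic tumours, 9.56, 10.01 and 10.31 in non-metastatic tumours, and 9.58, 9.53 and 9.60 in normal glands. The change was 0.32 in metastatic tumours (95% interval -0.09 to 0.72, adjusted p = 0.27) and 0.39 in non-metastatic tumours (-0.02 to 0.79, adjusted p = 0.16). Metastatic tumours all lay above the normal glands, while non-metastatic tumour 1 lay among them. With array weights Hif1a passed over all tumours. A second, dimmer probe set, 17281911, gave differences of 0.30 in metastatic and 0.50 in non-metastatic tumours.

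Of the glucose and lactate transporters, Slc16a3 alone passed in any comparison. It encodes the lactate exporter of strongly glycolytic cells, and its values were 6.80, 6.57 and 7.37 in metastatic tumours, 6.97, 8.50 and 7.08 in non-metastatic tumours, and 5.95, 6.26 and 6.17 in normal glands. All tumours lay above all normal glands. The rise in non-metastatic tumours was 1.39 (SE 0.40, adjusted p = 0.045), while the difference in metastatic tumours was 0.79 (SE 0.40, adjusted p = 0.22). Without non-metastatic tumour 2 the non-metastatic value was 0.90 (adjusted p = 0.057), and 10 of 21 alternatives ended the call, among them leaving out any metastatic tumour or any normal gland.

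Slc2a1, the widespread glucose transporter, had 10.36, 9.43 and 10.50 in metastatic tumours, 10.88, 11.67 and 10.35 in non-metastatic tumours, and 9.83, 9.53 and 10.27 in normal glands. Non-metastatic tumours all lay above the normal glands, by a mean of 1.09 (SE 0.39, adjusted p = 0.090), and metastatic tumours overlapped them (0.22, SE 0.39, adjusted p = 0.75). A second, dimmer probe set, 17429307, read 5.87, 5.61 and 6.00 in metastatic tumours, 6.70, 6.56 and 6.05 in non-metastatic tumours, and 6.25, 5.62 and 6.12 in normal glands. There non-metastatic tumour 3 lay among the normal glands, and the differences were -0.17 in metastatic and 0.44 in non-metastatic tumours. Slc16a1, a transporter of lactate in both directions, stood at 9.24, 8.02 and 9.50 in metastatic tumours, 9.43, 10.53 and 9.84 in non-metastatic tumours, and 9.98, 10.11 and 10.30 in normal glands. Metastatic tumours were lower than the normal glands without overlap, by -1.21 (SE 0.40, adjusted p = 0.084), which missed the threshold. Slc2a3, a high-affinity glucose transporter, stayed between 5.70 and 6.29 on all 9 arrays. That is near the array medians of 5.80 to 5.94, and whether the probe set detects its RNA was not tested.

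Of the 12 glycolytic enzymes measured, 1 fell and 11 did not pass over all tumours, with a median change of -0.03. The exception was Hk2, the inducible hexokinase of muscle and fat that commits glucose to the cell. Its values were 7.91, 7.67 and 7.85 in metastatic tumours, 8.61, 9.55 and 8.13 in non-metastatic tumours, and 9.48, 10.05 and 9.37 in normal glands. It fell in metastatic tumours by 1.82 (SE 0.34, adjusted p = 0.017), and non-metastatic tumours, whose tumour 2 lay among the normal glands, differed by -0.87 (SE 0.34, adjusted p = 0.11). Without that tumour the non-metastatic difference was -1.26 (adjusted p = 0.032). Without normal gland 2, which was the highest of the 9 arrays and carried skeletal muscle markers, the metastatic change was -1.61 (adjusted p = 0.054), and the call also ended without metastatic tumour 1 or 3.

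Hk1, the hexokinase of most tissues, leaned the other way, at 8.19 to 8.48 in metastatic tumours, 8.10 to 9.00 in non-metastatic tumours and 7.83 to 8.21 in normal glands. Its difference over all tumours was 0.47 (SE 0.20, adjusted p = 0.12). Pgk1, which makes the first ATP of the pathway, had 11.09, 10.64 and 11.39 in metastatic tumours, 11.43, 11.96 and 11.36 in non-metastatic tumours, and 10.72, 11.16 and 10.88 in normal glands. Its non-metastatic difference of 0.66 (SE 0.24, adjusted p = 0.087) missed the threshold although the groups did not overlap.

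Ldha, which makes lactate, had 7.64, 6.83 and 7.32 in metastatic tumours, 7.23, 7.68 and 7.19 in non-metastatic tumours, and 7.33, 7.66 and 7.21 in normal glands. The change over all tumours was -0.08 (95% interval -0.54 to 0.38, adjusted p = 0.81). Pkm, the pyruvate kinase of the last step, lay between 11.56 and 12.24 on all arrays, far above the 6.83 to 7.68 of Ldha. How well the 1 probe set of Ldha reports its RNA was not tested. Aldoc, an aldolase, had its lowest value, 8.56, in normal gland 2, against 10.63 and 11.02 in normal glands 1 and 3 and 10.17 to 11.29 in the tumours. Pfkp, a phosphofructokinase, had 9.40, 9.12 and 9.45 in metastatic tumours, 9.68, 10.65 and 9.40 in non-metastatic tumours, and 10.11, 10.54 and 9.64 in normal glands. Its metastatic tumours all lay below the normal glands, and non-metastatic tumour 2 lay above them. Tpi1, Pgam1, Eno2, Pfkl, Pfkp and Pfkm, which run the middle steps, gave differences between -0.54 and 0.24 over all tumours, none past the threshold.

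Pfkfb3 and Pfkfb4, bifunctional enzymes that set the level of the phosphofructokinase activator, fell over all tumours, while Pfkfb2, of the same family, gave 0.24 (SE 0.16, adjusted p = 0.31). Pfkfb3, the more strongly glycolytic form, had 7.02, 7.32 and 7.90 in metastatic tumours, 7.41, 7.74 and 7.15 in non-metastatic tumours, and 9.46, 9.54 and 7.85 in normal glands. Normal gland 3 lay just below the highest tumour, while normal glands 1 and 2 stood well above every tumour. The change over all tumours was -1.53 (SE 0.39, adjusted p = 0.026), and it was lost in 3 of 20 alternatives, without metastatic tumour 1 or normal gland 1 or 2. Its call in non-metastatic tumours was lost in 14 of 21 alternatives. Pfkfb4, its relative, read 6.79, 6.71 and 6.71 in metastatic tumours, 6.45, 6.32 and 6.72 in non-metastatic tumours, and 6.95, 7.32 and 6.87 in normal glands, a small but complete separation. It fell by 0.43 over all tumours (SE 0.13, adjusted p = 0.046), and 13 of 20 alternatives ended that call. The call in non-metastatic tumours ended in 12 of 21. Pdk1, a pyruvate dehydrogenase kinase, lay between 7.86 and 8.77 on all arrays (change -0.01, SE 0.14, adjusted p = 0.95).

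Among the other hypoxia-induced genes, Ddit4 rose and Bnip3 fell. Ddit4, a stress-induced inhibitor of mTOR signalling, had 9.12, 9.07 and 8.22 in metastatic tumours, 8.83, 9.13 and 9.71 in non-metastatic tumours, and 7.78, 7.74 and 7.38 in normal glands, without overlap. It rose by 1.17 in metastatic tumours (SE 0.30, adjusted p = 0.039) and by 1.59 in non-metastatic tumours (SE 0.30, adjusted p = 0.013). The metastatic call ended in 7 of 21 alternatives and the non-metastatic call in 0 of 21.

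Bnip3, which marks mitochondria for removal, had 7.52, 7.29 and 8.20 in metastatic tumours, 8.44, 8.95 and 7.88 in non-metastatic tumours, and 9.50, 10.13 and 8.58 in normal glands. It fell by 1.74 in metastatic tumours (SE 0.44, adjusted p = 0.038) and differed by -0.98 in non-metastatic tumours (SE 0.44, adjusted p = 0.15), with non-metastatic tumour 2 above normal gland 3. Bnip3, Hk2 and Pfkfb3 were all highest in normal gland 2 and fell beside the adipocyte markers. Besides the white adipocyte markers given above, 5 of 5 brown adipocyte markers fell over all tumours (median -5.19), with means of 5.40 to 5.90 in metastatic tumours, 5.52 to 6.11 in non-metastatic tumours and 9.96 to 10.61 in normal glands. All 5 cell division genes rose (median 1.61), with means of 8.54 to 9.49 in metastatic tumours, 8.92 to 9.51 in non-metastatic tumours and 6.99 to 8.17 in normal glands. The part of these cells in any change against normal gland was not tested. Over all tumours all 3 calls ended without normal gland 2, at an adjusted p of 0.13 for Bnip3, 0.068 for Hk2 and 0.11 for Pfkfb3. The call of Bnip3 also ended without metastatic tumour 1 or 2, non-metastatic tumour 1 or 3, or normal gland 1. Its call in metastatic tumours ended in 8 of 21 alternatives.

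Ndrg1, a differentiation and stress gene, had 11.26, 10.45 and 11.06 in metastatic tumours, 11.14, 11.68 and 11.24 in non-metastatic tumours, and 10.89, 10.24 and 11.30 in normal glands, with all groups overlapping. P4ha1 and P4ha2, collagen prolyl hydroxylases, gave 0.40 and 0.22 over all tumours (SE 0.35 and 0.23). Higd1a, a mitochondrial survival protein, Hilpda, a lipid droplet protein, and Adm, the vasodilator adrenomedullin, gave -0.32, 0.16 and -0.02. None of these 6 genes passed against normal gland.

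**Figure D3:**
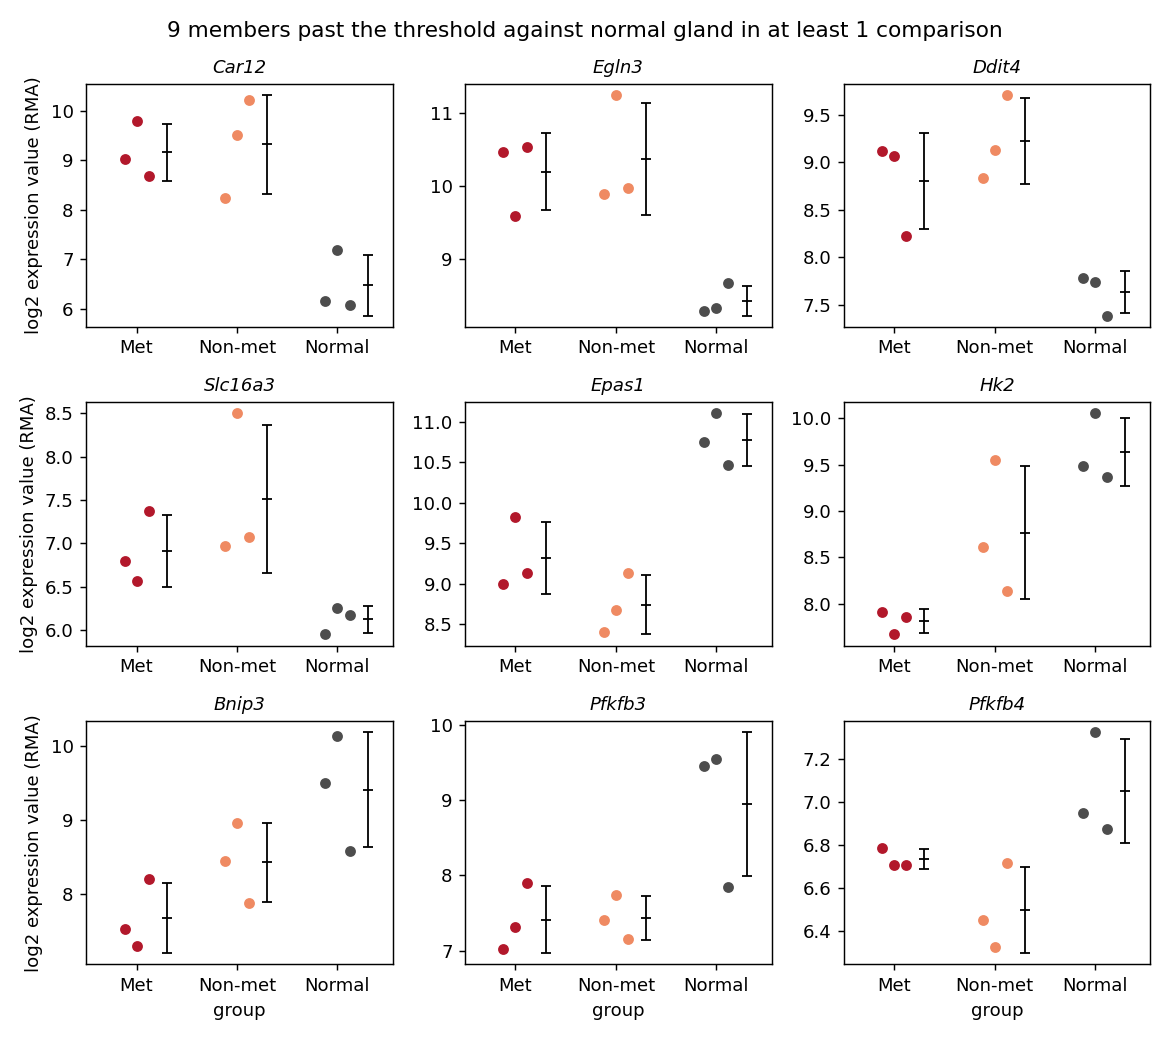
Log2 value on each array of the 9 genes past the threshold in at least 1 comparison with normal gland. Points are arrays, and bars beside them are the group mean and SD (n = 3). Car12, Egln3, Ddit4 and Slc16a3 are higher on every tumour than on every normal gland, and Epas1 and Pfkfb4 lower.

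Metastatic tumours were then set against non-metastatic ones. With limma 0 of 33 genes passed, beside 0.00572% of all genes, and 5 had an unadjusted p under 0.05 (5.07% of all genes). Most differences were nonetheless negative: 28 of 33, with a median of -0.35, beside -0.02 over all genes. In 4 of 33 genes (Hk2, Pkm, Pdk1 and Higd1a) every metastatic tumour lay below every non-metastatic one, beside 5.84% of all genes, and in 0 of 33 every one lay above, beside 4.41%. Without non-metastatic tumour 2 the median was -0.09, with 22 genes negative and 0 at an unadjusted p under 0.05. Without metastatic tumour 2 it was -0.23, with 25 negative and 0 at that level. Without any other single array the median lay between -0.42 and -0.34. At an unadjusted p under 0.05, 10 genes were counted once non-metastatic tumour 3 was left out, beside 11.4% of all genes. Cell type markers differed beside these genes, none past the threshold. Differences were positive for 5 of 5 basal epithelial markers (median 0.92), 5 of 5 fibroblast markers (0.63) and 6 of 6 endothelial markers (0.37). They were negative for 8 of 8 skeletal muscle markers (-1.03), 4 of 4 neutrophil markers (-0.83) and 5 of 5 cell division genes (-0.20). Their part in the differences was not tested.

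Of the transporters, Slc16a1 differed by -1.02 (SE 0.40, adjusted p = 0.88), Slc2a1 by -0.87 (SE 0.39, adjusted p = 0.88) and Slc16a3 by -0.60 (SE 0.40, adjusted p = 0.88). Among the enzymes Hk2 differed by -0.95 (SE 0.34), Pfkp by -0.58 (SE 0.34) and Pgk1 by -0.54 (SE 0.24), each with adjusted p = 0.88. Adm differed by -0.79 (SE 0.62) and Bnip3 by -0.76 (SE 0.44). Without non-metastatic tumour 2 the differences were 0.013 for Adm, -0.11 for Slc16a3, -0.22 for Pfkp, -0.52 for Slc2a1, -0.56 for Hk2, -0.35 for Pgk1 and -0.49 for Bnip3. Epas1 was the largest in the other direction, at 0.58 (95% interval -0.06 to 1.22, adjusted p = 0.88).

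With all arrays in the fit, the genes that rose against normal gland in both tumour groups gave smaller differences than the genes just named. Egln3 differed by -0.17 (95% interval -1.08 to 0.73), Car12 by -0.16 (-1.39 to 1.07) and Ddit4 by -0.42 (-1.10 to 0.26). Hif1a differed by -0.07 (-0.48 to 0.34) and Ldha by -0.10 (-0.64 to 0.43). The intervals of Egln3, Car12 and Ddit4 reach beyond a change of 1 in at least 1 direction, so equality of the groups is not shown.

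The clearest pattern among the 33 genes lay between single tumours. Non-metastatic tumour 2 had the highest value of the 6 tumours in 20 of 33 genes (60.6%), against 21.4% of all genes tested. Metastatic tumour 2 had the lowest value in 17 genes (51.5%, against 24.7% of all genes), and 16 genes showed both. Of the 12 enzymes, 9 were highest in non-metastatic tumour 2 and 9 lowest in metastatic tumour 2. With 1 tumour on either side these counts describe the arrays and carry no test. The genes also spread more widely among tumours than most, with a median range of 1.07 over the 6 tumours, beside 0.52 over all genes.

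Adm showed the widest gap. It read 9.31 in non-metastatic tumour 2, against 7.19 and 6.61 in non-metastatic tumours 1 and 3, 7.00, 6.93 and 6.82 in metastatic tumours and 7.53, 7.76 and 6.72 in normal glands. Slc16a3 followed, at 8.50 against 7.37 in the next tumour. Hilpda read 8.60 in that tumour and 7.60 to 7.78 in the other 5 tumours, close to the 7.60 to 7.79 of normal glands. Enzymes of the pathway followed. Pfkp stood at 10.65 against 9.68 in the next tumour, Tpi1 at 11.88 against 11.07, and Eno2 at 7.45 against 6.63.

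Other genes peaked elsewhere. Hif1a was highest in non-metastatic tumour 3 (10.31) and Epas1 in metastatic tumour 2 (9.82). Car12 was also highest in non-metastatic tumour 3, at 10.22, and Ddit4 there at 9.71. Ldha was highest in non-metastatic tumour 2 by only 0.04. Of the 19 genes highest in that tumour with a promoter window, 17 held an ACGTG or GCGTG match, and of the 11 others 10 did, so a match was about as frequent in either set.

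Other measures moved with non-metastatic tumour 2. Its mouse was the youngest at collection, at 222 days, with onset at 192 days. Its mean over 4 neutrophil markers was 7.71, against 5.51 to 5.76 in the other tumours. Its mean over 5 fibroblast markers was 7.15, against 8.80 to 10.72, and over 6 endothelial markers 7.72, against 8.04 to 9.19. Metastatic tumour 2 had the highest endothelial mean, 9.19, and the lowest mean over 5 cell division genes among the tumours, 8.54 against 8.92 to 9.51. Its onset was at 194 days and its collection at 281 days. The part of these measures in the pattern was not tested.

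**Figure D4:**
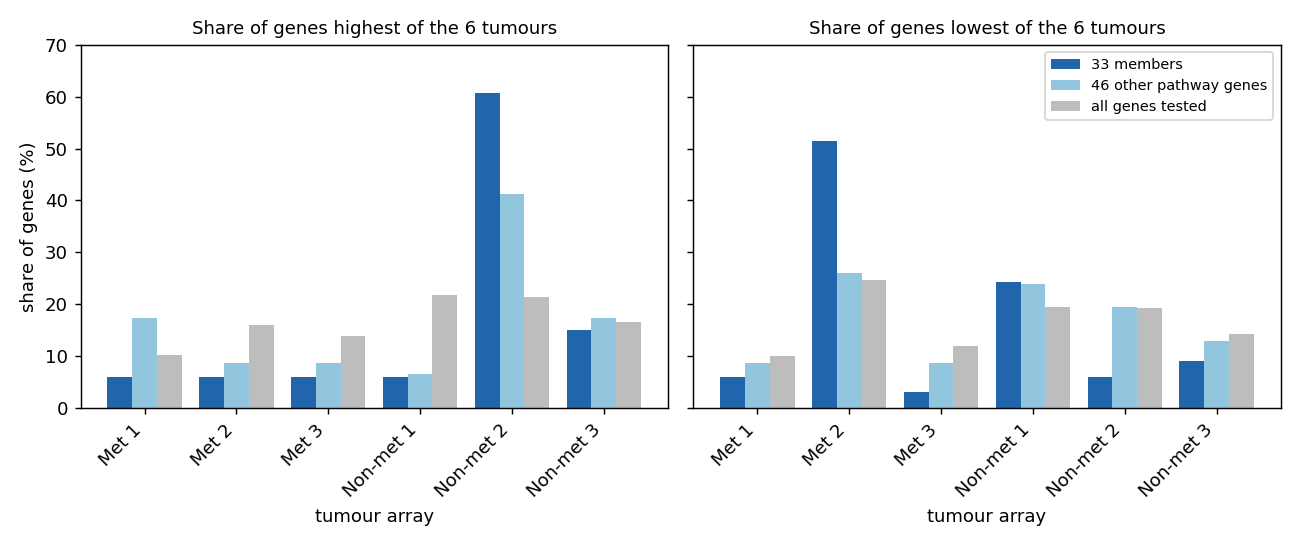
Share of genes (%) for which each tumour had the highest (left) or the lowest (right) value of the 6 tumours, for the 33 genes, the 46 other pathway genes and all 17478 genes. Non-metastatic tumour 2 is highest for 60.6% of the 33 genes and metastatic tumour 2 lowest for 51.5%.

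A further list of 52 genes of glycolysis, HIF regulation and hypoxia was read beside the 33, and 46 of them passed the filter. Between the tumour groups 0 of 46 passed in limma, beside 0.00572% of all genes, and 3 had an unadjusted p under 0.05 (5.07% of all genes). Over all tumours against normal gland 6 rose and 6 fell, in non-metastatic tumours 7 rose and 6 fell, and in metastatic tumours 0 rose and 5 fell. These are 26.1%, 28.3% and 10.9% of the 46, beside 22.8%, 18.8% and 13.3% of all genes. The metastatic count was 0 without metastatic tumour 1 or 3 or normal gland 1, 1 without metastatic tumour 2 or normal gland 2, and 8 without non-metastatic tumour 2. The non-metastatic count was 5 and 6 without normal glands 1 and 2, and that for all tumours 7 and 6. The share of all genes moved as well, as given above, and was 11.7% in metastatic tumours without non-metastatic tumour 2.

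Of the 6 that fell over all tumours, Pdk4, Slc2a4, Angptl4 and Gbe1 changed most. Slc2a4, the insulin-responsive glucose transporter of fat and muscle, had 7.59, 8.27 and 8.16 in metastatic tumours, 6.14, 6.43 and 7.97 in non-metastatic tumours, and 9.70, 10.29 and 9.33 in normal glands. It fell by 2.35 over all tumours (SE 0.41, adjusted p = 0.0076). Pdk4, a pyruvate dehydrogenase kinase of fasting, fell by 2.60 (SE 0.49, adjusted p = 0.0096), Angptl4, a lipase inhibitor made by fat, by 2.00 (SE 0.47, adjusted p = 0.020), and Gbe1, the glycogen branching enzyme, by 1.70 (SE 0.28, adjusted p = 0.0063). Hif3a, a HIF alpha subunit that can restrain the others, fell by 0.54 (SE 0.12, adjusted p = 0.017). The white adipocyte markers given above fell beside these genes, and their part was not tested.

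The genes that rose in non-metastatic tumours included several well-known HIF targets, named here after their values were seen. Of the 25 hypoxia and HIF genes tested from this list, 6 rose there and 3 fell, 36% beside 18.8% of all genes. Those that fell were Hif3a, Angptl4 (mean 8.17 against 10.25 in normal glands) and Gbe1 (8.16 against 9.80). Their calls there ended in 6, 8 and 1 of 21 alternatives. Hif3a read 5.52 to 6.37 over the 9 arrays, near the array medians of 5.80 to 5.94. Kdm3a, a histone demethylase, rose by 1.20 (SE 0.24, adjusted p = 0.016), Ero1a, an oxidase of the endoplasmic reticulum, by 1.50 (SE 0.39, adjusted p = 0.035), and Ak4, a mitochondrial adenylate kinase, by 1.34 (SE 0.29, adjusted p = 0.018). Arnt2, a partner subunit related to Arnt, rose by 1.61 (SE 0.42, adjusted p = 0.034). In metastatic tumours Kdm3a and Ero1a each differed by 0.72, Ak4 by 0.70 and Arnt2 by 1.24, and none of these 4 passed. The difference between the tumour groups did not pass for any of them. The call of Arnt2 ended in 9 of 21 alternatives and that of Ero1a in 7, both without any 1 of the normal glands, without non-metastatic tumour 1 or without metastatic tumour 3. For Arnt2 it also ended without metastatic tumour 1 or non-metastatic tumour 3. Ak4 lost its call in 2 alternatives, among them without normal gland 1, and Kdm3a in 1, without normal gland 2. Ero1a read 12.05 in non-metastatic tumour 2, against 10.79 and 10.36 in the other non-metastatic tumours, and its change without that tumour was 1.00.

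Vegfa, the angiogenic factor induced by HIF, had 9.55, 9.54 and 10.31 in metastatic tumours, 10.30, 11.31 and 9.96 in non-metastatic tumours, and 10.41, 10.89 and 10.41 in normal glands. Non-metastatic tumour 2 was the highest array and metastatic tumours lay below every normal gland, but no comparison passed (-0.77 in metastatic tumours, SE 0.36, adjusted p = 0.19). Gapdh, the glycolytic enzyme often used as a loading standard, lay between 12.87 and 13.28 on all arrays, again highest in non-metastatic tumour 2. In all, 19 of the 46 genes (41.3%) were highest there among the tumours, beside 21.4% of all genes.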

How the data were processed

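RNA from frozen mammary tissue was hybridised to Affymetrix Mouse Gene 2.0 ST arrays. The deposited values are log2 values made with RMA, per the submitters' processing notes, with version and probe set level not given in the sources used here. Scanner files were not used here, and the number of arrays limits the precision.

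Of 41345 probe sets, 23521 carried 1 symbol in GEO's platform annotation, of which 23328 matched a current gene, while 1814 carried several. Genes had to exceed the 30th percentile of all probe sets on 3 or more arrays. Groups came from titles. All 9 arrays entered a single model with a mean for each group (limma 3.58.1, R 4.3.3, eBayes, two-sided), and p was adjusted by Benjamini-Hochberg over 17478 genes. SE and 95% intervals are limma's moderated ones. The fit was tested on simulated data.

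Genes and lists were chosen with earlier results of these data known. Named were genes past the threshold, the 3 largest differences between tumour groups per role, and 4 preset genes (Hif1a, Epas1, Slc2a1, Ldha), with up to 4 further pathway genes per comparison besides Vegfa and Gapdh. The 22 alternatives covered filters, probe set averaging, scaling, variance models, array weights, arrays in the fit, replicate block, age, thresholds and each array left out. Replicate numbers name different mice and were not taken as pairs.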

Additional observations from a re-analysis of the deposited data

Results flagged for a closer look

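On the brighter of its 2 probe sets Pdk1, a pyruvate dehydrogenase kinase, lay on opposite sides of the normal mean in the tumour groups. Metastatic tumours read 8.37, 7.86 and 8.33 and non-metastatic tumours 8.52, 8.77 and 8.41, around a normal mean of 8.39. Normal glands read 8.31, 8.49 and 8.37 and overlapped both tumour groups. The tumour groups differed by -0.38 (SE 0.16), and limma's test of that difference did not pass (adjusted p = 0.88). The distance of each tumour group from normal gland did not pass either, at -0.20 in metastatic tumours (adjusted p = 0.44) and 0.17 in non-metastatic tumours (adjusted p = 0.49). The dimmer probe set, 17548205, did not show opposite sides. There both tumour groups lay above the normal mean of 4.27, by 0.09 in metastatic and 0.38 in non-metastatic tumours. Its values, 4.08 to 4.82, lay below the array medians of 5.80 to 5.94.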

How the results depend on the processing

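Between the tumour groups the count of genes past the threshold was 0 of 33 and 0 of 46 under all 22 alternatives. Against normal gland, of the 33 genes 7 passed in non-metastatic tumours, and 4 when the fit held just the groups compared, 4 with the replicate block and 3 to 7 with each array left out. In metastatic tumours 6 passed, and 11 with array weights, 3 with the replicate block and 0 to 6 with each array left out. Over all tumours 8 passed, and 13 with array weights and 4 to 9 with each array left out. Of the 46 other pathway genes 13 passed in non-metastatic tumours, and 7 when the fit held just these groups, 8 at a minimum change of 1 and 5 to 12 with each array left out. In metastatic tumours 5 passed, and 3 without a filter, 8 with a filter at the 50th percentile, 21 with array weights, 8 when the fit held just these groups, 1 with the replicate block, 12 at an adjusted p under 0.1, 3 at a minimum change of 1 and 0 to 8 with each array left out. Over all tumours 12 passed, and 26 with array weights, 6 at a minimum change of 1 and 6 to 14 with each array left out. The share of all genes moved in the same direction where arrays were weighted (30.7% in non-metastatic, 37.2% in metastatic and 43.5% in all tumours), with the block (12.9%, 7.43% and 17.8%) and, in non-metastatic tumours, when the fit held just the groups compared (8.77%). With arrays left out it was 7.59% to 21.2% in non-metastatic, 3.62% to 16.1% in metastatic and 10.8% to 23.5% in all tumours. The cause of the other moves was not tested.

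Some differences between the tumour groups turned sign, among them that of Adm (-0.79). Pfkfb3 (-0.02) was 0.029 with array weights, and over the arrays left out it ran from -0.26 to 0.17. Car9 (0.07) was -0.22 with the mean of its probe sets, and ran from -0.057 to 0.19 with arrays left out. Egln1 ran from -0.37 to 0.066, Egln3 from -0.42 to 0.27, Car12 from -0.70 to 0.29 and Adm from -1.34 to 0.013. Of refitted differences past the threshold, 698 stayed past it, 168 did not and 0 turned sign. Median centring moved the median of all genes by up to 0.09. The replicate block has no support as pairing: same-numbered arrays' deviations correlated between -0.28 and 0.17, and 5 of 18 were highest with their own number. Arrays give no depth, and 3 per group limit what small changes can be seen.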
